A study of Mus musculus with 4 samples.

Results

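POU-domain transcription factors carry a POU-specific domain joined to a homeodomain, and together these bind octamer-like DNA sequences. They are sorted into classes by the likeness of these domains, and many of them fix the identity of neurons or of sensory cells during development. Cytosine methylation at CpG sites of a promoter is, as general background, often associated with a silent gene. The 10 POU genes described here were taken by gene name from the 17547 gene names on the arrays. The family was chosen by the ratio of 32-month over 3-month signal in an earlier reading of these same arrays, so its values are a description.

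Intestinal genomic DNA of mice of the inbred C57BL/6 strain was taken at an age of 32 months and at an age of 3 months. The study's title places the comparison in age-related DNA methylation. Each age was hybridised once to each of 2 custom Agilent arrays, the 32-month DNA in the red dye Cy5 and the 3-month DNA in the green dye Cy3, and no array had the dyes exchanged. The first array carried 6 of the POU genes and the second 4. Both samples of the first array are called WT in its file header, which also holds the unexplained abbreviation RMCA beside the mention of a polymerase. The sources used here do not say how DNA was selected by its methylation, so values are given as signal. They also do not state the animals' sex, how many mice a sample holds or the build behind the positions. With 1 sample per age and array, age cannot be told apart from the dye or from the single DNA sample, and no test across animals was possible. The arrays cover different parts of the genome, the first mainly chromosomes 1 to 8 with 549 probes of chromosome 9, and the second most of chromosome 9 and chromosomes 10 to 19, X and Y. Each POU region was therefore measured on 1 array only. That limits the precision, and every SD below describes how far the probes of 1 region lie apart.

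The POU genes were covered by 50 probes, which formed 11 regions of neighbouring probes at most 1000 bp apart, with 2 regions in Pou2f1 and 1 in each other gene. Probes are 45 to 60 bases long, and the array design annotates them as promoter or as inside the gene. Of the 50 probes, 45 were usable, meaning that they were well above background in at least 1 sample, and 44 of these were so in both samples. The other 5 were dim at both ages. The difference of a probe is the log2 ratio of 32-month over 3-month processed signal minus the median of its array, and the value of a region is the median over its usable probes. A region was called higher when its value was at least 1, a 2-fold difference, with every usable probe above 0, and lower in the mirrored case.

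Shown here are the usable promoter probes of the 5 regions that held a probe with a difference of at least 2-fold, those of Pou4f2, Pou3f2, Pou3f3, Pou4f1 and the second Pou2f1 region. Some of these promoter probes differed little, and some of the largest differences lay at probes inside the genes, which are given below by value. They are printed as deposited, with CpG sites in capitals, and each is named by the position of its first base in the files.
Pou4f2 81333106: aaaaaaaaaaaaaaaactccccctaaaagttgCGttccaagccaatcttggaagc
Pou4f2 81333512: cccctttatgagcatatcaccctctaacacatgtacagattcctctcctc
Pou4f2 81333644: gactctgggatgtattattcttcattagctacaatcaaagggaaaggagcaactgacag
Pou3f2 22579370: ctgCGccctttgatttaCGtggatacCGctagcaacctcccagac
Pou3f2 22579487: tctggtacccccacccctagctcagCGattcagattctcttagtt
Pou3f2 22579662: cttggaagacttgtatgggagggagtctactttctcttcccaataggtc
Pou3f2 22579926: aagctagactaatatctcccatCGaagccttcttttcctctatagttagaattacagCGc
Pou3f3 42640848: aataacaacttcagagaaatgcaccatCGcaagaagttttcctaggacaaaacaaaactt
Pou3f3 42641109: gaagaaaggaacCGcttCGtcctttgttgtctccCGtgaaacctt
Pou4f1 103354151: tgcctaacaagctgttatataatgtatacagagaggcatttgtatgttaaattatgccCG
Pou4f1 103354325: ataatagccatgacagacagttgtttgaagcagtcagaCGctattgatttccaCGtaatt
Pou4f1 103354499: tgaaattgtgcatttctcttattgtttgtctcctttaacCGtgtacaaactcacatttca
Pou2f1 167839544: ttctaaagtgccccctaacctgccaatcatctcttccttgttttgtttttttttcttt
Pou2f1 167839710: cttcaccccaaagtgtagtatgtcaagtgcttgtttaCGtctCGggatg
Pou2f1 167839890: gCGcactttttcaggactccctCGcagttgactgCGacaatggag
Pou2f1 167840147: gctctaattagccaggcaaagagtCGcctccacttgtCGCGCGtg

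Across the family, Pou4f2 and Pou3f2 were called higher at 32 months, Pou4f1 was called lower, and the other 7 genes had no called region. Thus 2 of 11 regions were called higher and 1 of 11 lower, where over all 15353 measured regions the shares were 2.01% and 0.632%. Since the family was proposed with this contrast in view, nothing is read from that difference. The median over the 11 regions was 0.24, against 0.015 over all measured regions, and 9 of the 11 region values were above 0. That last count was 8 with uncentred ratios, after loess correction, after normexp background correction, with means over probes and with the scanner's log ratio. Nothing is read from this median and count either. The family was chosen by the same ratio, and the median over all measured regions was itself above 0. Among the 45 usable probes, 11 had a log2 ratio of at least 1 and 4 of at most -1, where the shares over all 62411 usable probes were 6.35% and 3.35%. By the way those regions were picked, all of these probes lie in the 5 regions whose sequences are printed above. Nearest inside the rule were Pou3f2 at 1.43 among higher calls and Pou4f1 at -1.28 as the lower call. Pou3f3 at 1.05 passed the threshold but not the demand on every probe, and was the nearest outside.

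**Figure D1:**
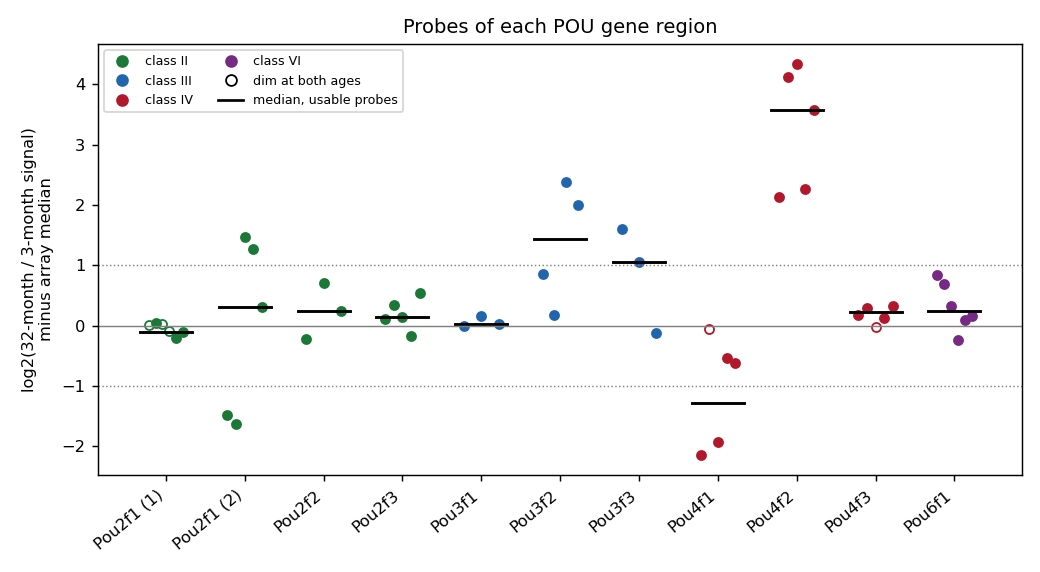
Log2 ratio of 32-month over 3-month signal, minus the array median, for each of the 50 POU probes by gene region (points, in chromosome order within a region, coloured by POU class), with the median over usable probes as a bar and dotted lines at -1 and 1. All 5 points of Pou4f2 lie above 2, the 4 usable points of Pou4f1 lie below 0, and the second Pou2f1 region has points on both sides of the dotted lines.

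Class IV POU factors specify sensory neurons. Pou4f2, which drives the differentiation of retinal ganglion cells, had the highest value of the family. Its region chr8:81332436-81333702 spans 1267 bp, with 2 probes annotated inside the gene and 3 as promoter. In chromosome order the 5 probes had processed signals of 88100, 154000, 127000, 1950 and 1760 at 32 months, against 20100, 8790, 6230, 404 and 148 at 3 months. Every probe was thus brighter at 32 months. The single differences were 4.37-fold, 17.5-fold, 20.3-fold, 4.81-fold and 11.9-fold. The largest lay at the promoter probe with 1 CpG, and the last 2 promoter probes, which hold no CpG, were 4.81-fold and 11.9-fold brighter too.

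The value of the Pou4f2 region was 3.57 ± 1.04 on the log2 scale (SD over 5 probes), an 11.9-fold difference, and its lowest probe was at 2.13. It ranked 41 from the top among the 15353 measured regions. The scanner's own error model, which covers measurement of 1 spot and no variation between animals, gave each Pou4f2 probe an SD between 0.28 and 0.46 on the log2 scale. Signal depends on the probe as well as on the DNA, so it serves here only to place a region by brightness. By its median signal the region stood at percentile 99.3 of measured regions at 32 months and at percentile 94.9 at 3 months. Higher calls were more frequent among bright regions. In the brightest of 10 bins of mean signal, which holds Pou4f2, 10.03% of 1536 regions were called higher and 2.93% lower. The nearest measured regions of other genes on chromosome 8 had values of 0.080 at a distance of 223 kb and -0.094 at 70.7 kb, and neither was called.

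Pou4f1, a factor of sensory ganglia and of brainstem nuclei, went the other way. Its region chr14:103353399-103354558 has 1 probe inside the gene and 4 promoter probes. The 4 usable probes had signals of 1770, 86.8, 140 and 54.9 at 32 months, against 8650, 366, 225 and 93.4 at 3 months. All 4 were dimmer at 32 months, by 4.44-fold, 3.83-fold, 1.46-fold and 1.54-fold after centring. The last 2 differences, -0.55 and -0.63 on the log2 scale, were smaller in size than the scanner's SD of 0.59 and 1.64 for those probes. The demand that every probe be below 0 was thus met by little. The remaining promoter probe, at 103354014, was not well above background at either age, with signals of 58.2 at 32 months and 66.9 at 3 months. At 32 months it was brighter than the usable probe at 54.9. Being well above background thus does not follow the processed signal alone.

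The Pou4f1 region value was -1.28 ± 0.85 (SD over 4 probes), and its rank was 93 from the bottom of all measured regions. Most of its signal was low. The region lay at percentile 8.88 of measured regions at 32 months and at percentile 34.1 at 3 months, and the scanner's error for its probes reached an SD of 1.64 on the log2 scale at the dimmest of them. In the brightness bin that holds it, 0.456% of regions were called lower. The call was lost at -0.29 after normexp background correction and at -0.63 when the dim probe was kept. It was also lost when probes over 500 bp apart were split, since the probe inside the gene then stood alone and the promoter probes gave -0.63. The 2 probes that carry the call, 1 inside the gene and 1 in the promoter, lie on either side of the dim probe.

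Pou4f3, which hair cells of the inner ear need to survive, showed no such difference. Its region chr18:42519746-42520809 gave 103, 142, 142 and 161 at 32 months for the 4 usable probes, against 101, 128, 144 and 141 at 3 months. The signals are low at both ages and overlap. The region value was 0.23 ± 0.10 (SD over 4 probes), below the scanner's SD of 0.87 to 1.31 for these probes. Class IV therefore held the highest and the lowest value of the family, and Pou4f3 near 0.

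**Figure D2:**
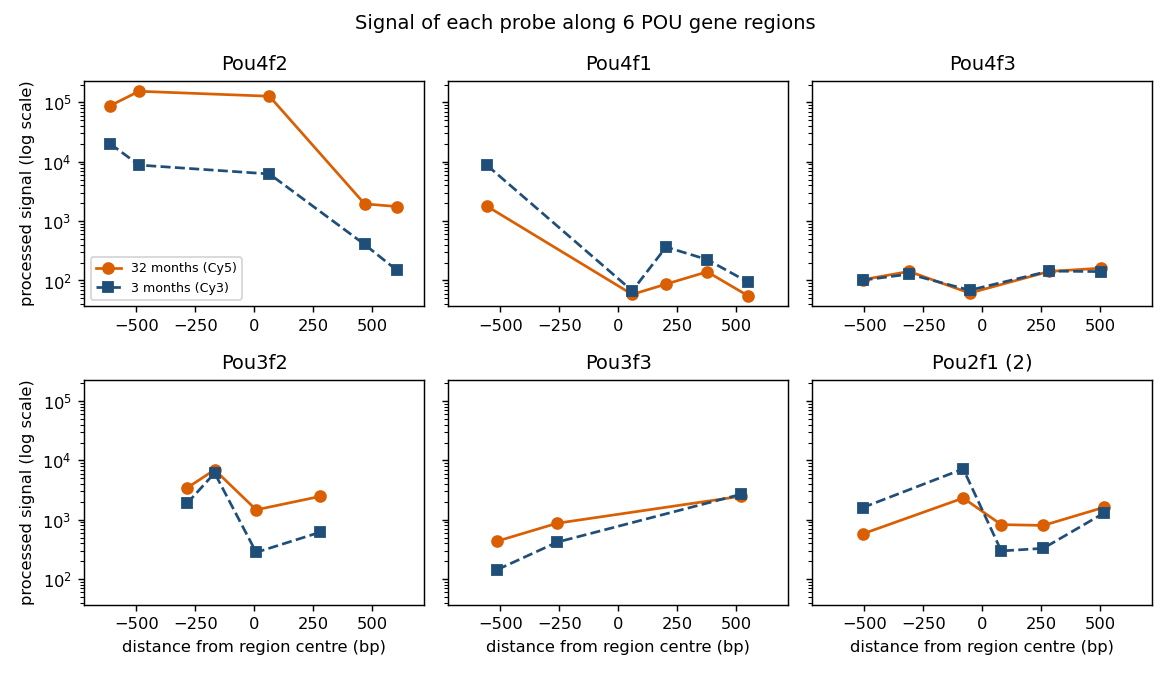
Processed signal (log scale) of each probe against its distance from the centre of its region in bp, at 32 months (circles) and 3 months (squares), for 6 POU gene regions. The 32-month line runs above the 3-month line along all of Pou4f2, below it along Pou4f1, and crosses it near the centre of the second Pou2f1 region.

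Class III POU genes act mainly in the developing nervous system. Pou3f2, a factor of cortical and hypothalamic neurons, was called higher. Its region chr4:22579370-22579985 consists of 4 promoter probes, with 3430, 6940, 1470 and 2470 at 32 months, against 1880, 6130, 282 and 615 at 3 months. All 4 were brighter at 32 months, yet unequally so. The first 2 differed by 1.82-fold and 1.13-fold and the last 2 by 5.197-fold and 4.004-fold. The region value was 1.43 ± 1.02 (SD over 4 probes), a 2.70-fold difference, at rank 244 from the top. Its lowest probe, at 0.17, was smaller than the scanner's SD of 0.21 for that probe, so the demand that every probe be above 0 was met by little. In the brightness bin of Pou3f2, 2.87% of regions were called higher.

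Pou3f3, which the kidney tubule and the cortex need for their development, came close to the same call. In the region chr1:42640848-42641933 the 2 promoter probes had 436 and 873 at 32 months, against 144 and 419 at 3 months. These are differences of 3.02-fold and 2.08-fold. The probe inside the gene, 735 bp farther on, had 2490 at 32 months and 2690 at 3 months. The value of 1.05 ± 0.87 (SD over 3 probes) passed the threshold, but that last probe lay at -0.12, so the region was not called. When probes over 500 bp apart were split, the promoter probes alone were called higher at 1.32. After normexp correction the region value was 0.33.

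Pou3f1, a factor of myelinating Schwann cells, was level. Its 3 promoter probes in chr4:124159034-124159757 gave 1420, 214 and 4210 at 32 months, against 1420, 191 and 4100 at 3 months. The region value was 0.034 ± 0.086 (SD over 3 probes). The spread among these probes was the smallest of the family, and no probe differed by more than 1.12-fold. Within class III most promoter probes of Pou3f2 and both of Pou3f3 showed larger differences than those of Pou3f1 in these samples. The second Pou3f2 probe, at 1.13-fold, was about level with the largest Pou3f1 difference. The contrast between these genes could not be tested over animals.

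For Pou3f2 a promoter probe could be placed on a reference. Of the 10 genes, 7 had a promoter window in the RefSeq table of build GRCm38.p6, and 2 probes matched such a window over their whole length. The Pou3f2 probe at 22579370 in the files covers bases 213 to 169 before the annotated start of Pou3f2. The 250 bases before that start, chr4:22488367-22488616 on the minus strand, are shown because they place the 1.82-fold difference beside a CpG-dense start, with the bases covered by the probe in capitals.
Pou3f2 promoter: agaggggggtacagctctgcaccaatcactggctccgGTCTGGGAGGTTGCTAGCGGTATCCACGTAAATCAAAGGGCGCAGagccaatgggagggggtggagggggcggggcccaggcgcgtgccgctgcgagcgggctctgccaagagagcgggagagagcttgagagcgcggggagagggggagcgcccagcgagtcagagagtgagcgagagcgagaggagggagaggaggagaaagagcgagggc
This stretch holds 18 CpG sites, against a median of 6 over 32851 RefSeq windows of the same length. The other match was a probe of the first Pou2f1 region, dim at both ages, which covers bases 66 to 7 before an annotated Pou2f1 start with 2 CpG sites in 250 bases.

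All 7 POU genes with a window, called or not, had at least 1 annotated start richer in CpG than that median. For the genes with a region value beyond 1 in size, the windows held 47 CpG sites at Pou4f1, 17 at Pou4f2, 18 at Pou3f2 and 15 at Pou3f3. Those of the uncalled genes Pou6f1 and Pou2f2 held 20 and 12, and the 3 annotated starts of Pou2f1 had 29, 2 and 2. The window of Pou4f1 had more CpG sites than 99.8% of all windows, and that of Pou4f2 more than 76.5%. No probe of Pou4f1, Pou4f2 or Pou3f3 matched its window over its whole length. The probes themselves do not carry this density. Usable POU probes held a median of 1 CpG, and 35.6% held none, where the share over all usable probes was 40.9%. Over the 45 usable POU probes the number of CpG sites in a probe and the size of its difference had a Pearson correlation of -0.031 and a Spearman correlation of 0.074, given as a description since probes of a region share their DNA.

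Class II factors bind the octamer in many tissues. Pou2f1, which is expressed in most cell types, had a region in which the direction turned within 1075 bp. In chr1:167839117-167840191 the 5 probes gave 577, 2320, 828, 802 and 1620 at 32 months, against 1600, 7190, 298, 330 and 1300 at 3 months. The first 2 probes were 2.78-fold and 3.11-fold dimmer at 32 months. The next 2 were 2.77-fold and 2.42-fold brighter and the last was 1.24-fold brighter. Only 108 bp separate the second probe from the third, and the scanner's SD for these 5 probes was between 0.23 and 0.34 on the log2 scale, below the size of each of the first 4 differences.

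The value of this Pou2f1 region, 0.31 ± 1.48 (SD over 5 probes), hides that pattern, and the region was not called. Among 8102 regions with at least 4 usable probes, 6 (0.0741%) had 2 or more probes at 1 or above together with 2 or more at -1 or below, and this region was 1 of them. The pattern was singled out after its values were seen. Its mean over probes was -0.010. The first Pou2f1 region, chr1:167771227-167772684, was mostly dim. Its 3 usable probes had 202, 62.0 and 247 at 32 months, against 196, 71.7 and 266 at 3 months, and its value was -0.11 ± 0.13 (SD over 3 probes). The 62.0 was not well above background, so that ratio is only a bound.

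Pou2f2, a factor of B lymphocytes, and Pou2f3, which tuft cells of the intestine need to form, had no called region. The Pou2f2 probes in chr7:24841009-24841942 had 1460, 27900 and 3980 at 32 months, against 1690, 17000 and 3360 at 3 months. The region value was 0.24 ± 0.46 (SD over 3 probes), and a promoter probe without CpG was 1.64-fold higher. For Pou2f3 in chr9:42956636-42957757 the 5 probes gave 925, 543, 1600, 87.1 and 326 at 32 months, against 941, 471, 1600, 108 and 246 at 3 months. Its value of 0.14 ± 0.27 (SD over 5 probes) was within the spread of its probes. The value was 0 with uncentred ratios, so the 0.14 came from the centring of its array. After loess correction it was -0.0071.

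Class VI was represented by Pou6f1, a factor found widely in the brain. Its region chr15:100414121-100415353 had 60800 and 80500 at 32 months for the 2 probes inside the gene, against 37600 and 54700 at 3 months. Its 4 promoter probes had 810, 7090, 1290 and 435 at 32 months, against 716, 9200, 1340 and 427 at 3 months. Both probes inside the gene were higher, by 1.78-fold and 1.62-fold, while the promoter probes ranged between -0.24 and 0.32 on the log2 scale. The region value was 0.24 ± 0.40 (SD over 6 probes) and was not called. It stood at percentile 92.1 by signal at 32 months and at percentile 94.0 at 3 months.

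**Figure D3:**
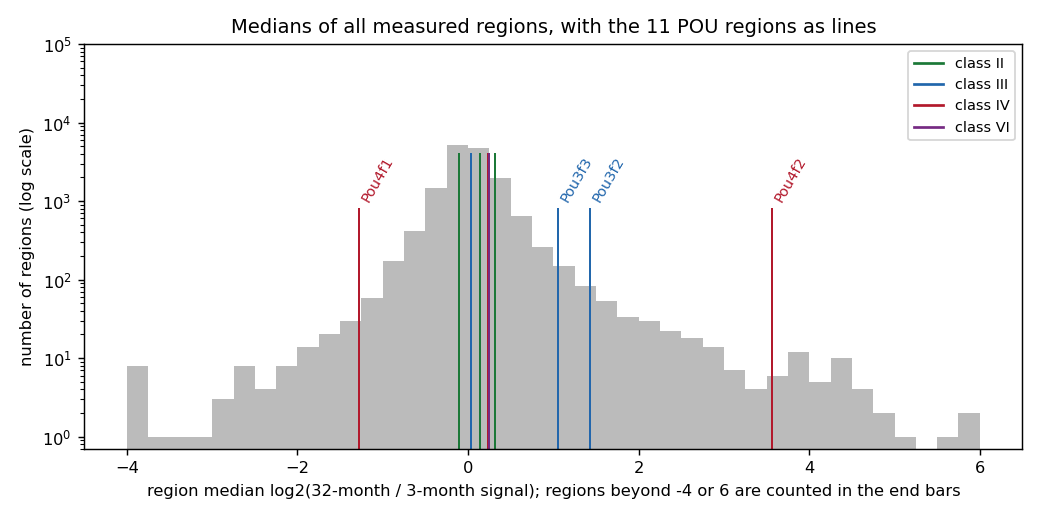
Number of regions (log scale) by region median log2 ratio of 32-month over 3-month signal, for all 15353 measured regions (bars of width 0.25, the end bars holding values beyond the axis), with the 11 POU regions as lines coloured by class. The lines of Pou4f2 at 3.57, Pou3f2 at 1.43, Pou3f3 at 1.05 and Pou4f1 at -1.28 stand apart from the 7 others, which lie between -0.11 and 0.31.

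For all 11 POU regions the nearest measured region of another gene on each side was not called. With 2.01% of all regions called higher and 0.632% lower, uncalled neighbours are the common case, and nothing is read from this count. Around Pou3f2 these neighbours had -0.13 at a distance of 131 kb and -0.11 at 2408 kb. Beside Pou4f1 they had -0.26 at 7.44 kb and 0.58 at 1428 kb. The largest neighbour value was 0.76, beside Pou2f3 at 99.2 kb. All POU genes measured here are autosomal. On the X chromosome 20 of 508 regions were called lower at 32 months and the median was -0.070, against a median of 0.017 on autosomes, and its part in the results on POU genes was not tested.

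Both arrays had similar shares of probes well above background, between 70.1% and 72.5% by sample, and no probe was saturated. Before background subtraction, the second array's signals lay nearer those of its negative control spots. Its median probe signal was 135 against 107 at 32 months and 71.8 against 61.7 at 3 months. On the first array these were 203 against 107 and 113 against 80. Before centring, the first array had a median log2 ratio of 0.0044 and the second one of -0.14, so the second array's POU genes Pou2f3, Pou4f1, Pou4f3 and Pou6f1 were shifted upward by 0.14. Of all regions, 1.36% of those on the first array were called higher and 0.585% lower, and 2.64% and 0.677% of those on the second. Over both arrays 309 regions were called higher and 97 lower, or 76.1% higher. The split was 241 to 133 with uncentred ratios, 242 to 134 with the scanner's log ratio and 421 to 20 after normexp correction, or 64.4%, 64.4% and 95.5% higher.

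Genes that work with POU factors, and like homeobox families, were read by the same rule. Over all 14413 measured gene names, 2.14% had a region called higher and 0.673% a region called lower. Among 12 measured coactivators and partners of POU factors, 2 were called higher and none lower. These were Sox11, a partner of class III factors in neural progenitors, at 1.78 ± 0.96 over 6 probes, and Neurog1, a proneural factor upstream of Pou4f1 in sensory ganglia, at 1.59 ± 2.40 over 5 probes. The lowest Neurog1 probe lay at 0.066, so this call was met by little. The median signal of the Neurog1 region was 1910 at 32 months and 2010 at 3 months. Of 11 LIM homeobox genes 1 was called higher, Lmx1b at 1.58 ± 0.19 over 2 probes inside the gene, and of 9 Pax genes 1 was, Pax3 at 1.61 ± 0.88 over 7 probes. The lowest Pax3 probe lay at 0.065, so that call was met by little too. The list medians were 0.11 for the partners, 0.0096 for LIM homeobox genes and 0.056 for Pax genes, against 0.23 over the 10 POU genes. The POU genes were chosen by this same ratio, so nothing is read from their higher median. Another 2 POU genes on the arrays had enough usable probes, with values of 0.29 and 0.37, and neither was called. The differences between these lists were not tested.

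Marker genes of cell types were read as DNA regions, since genomic DNA shows no expression and the labelled tissue cannot be checked in this way. No gene was called among 12 measured tuft cell genes, 10 B cell genes, 9 epithelial genes, 10 genes of enteric neurons and glia and 7 smooth muscle genes, and none among 13 transcription factors that every cell uses. Their list medians lay between -0.023 and 0.090. Of 11 T cell genes 1 was called higher, Bcl11b, a factor of T cell commitment, at 2.01 ± 0.16 over 4 probes, and the list median was -0.12. Over all measured gene names, 2.14% had a region called higher and 0.673% a region called lower. Few or no calls are thus the common case in lists this short, and nothing is read from these counts. Whether the cell make-up of the 2 tissue samples differed, and its part in the results on POU genes, was not tested.

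**Figure D4:**
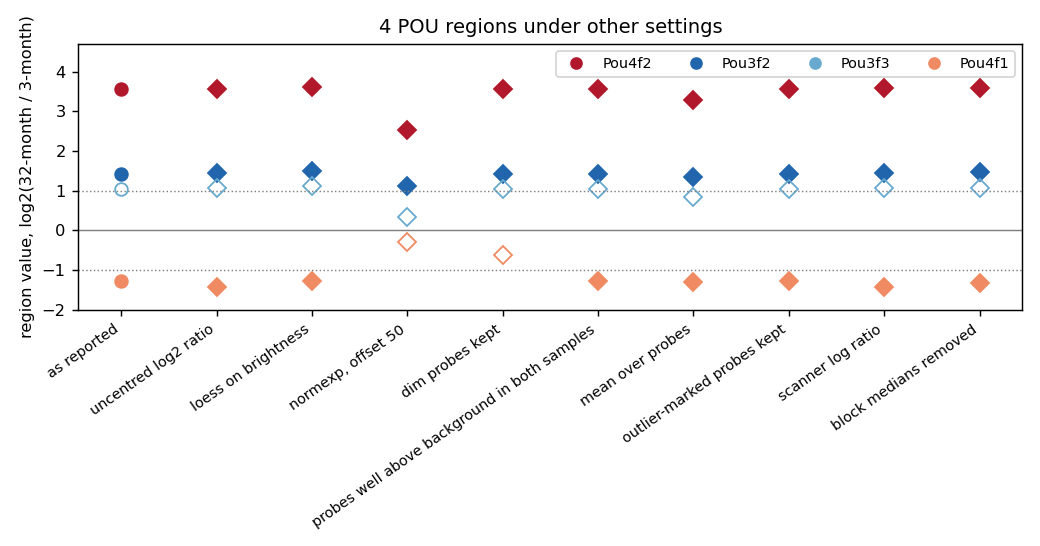
Region value, as log2 ratio of 32-month over 3-month signal, of Pou4f2, Pou3f2, Pou3f3 and Pou4f1 as reported (circles) and under 9 other settings (diamonds), filled where the region was called and open where it was not. Pou4f2 stays between 2.54 and 3.62 and Pou3f2 between 1.11 and 1.502, while Pou4f1 loses its call at -0.29 and -0.63.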

How the data were processed

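The submitters' processing notes name Agilent Feature Extraction 9.1.3.1 as the scanner software. From its deposited output the processed intensity of each dye was taken. Per the file headers, that software had scaled each dye by a linear factor with trend removal switched on, and the background it subtracted was a surface fitted over the array, not each spot's own surroundings. The 2 deposited scanner files of an array were identical, so each dye was read once. The authors' value table equalled the processed signals in 100% of spots. The deposited log10 ratio and its log10 error per spot served as an alternative and as the measurement error. No columns of per-sample values remained unmatched.

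Log2 ratios were centred on each array's median over positioned probes. Control spots and spots marked as outliers were left out. Regions needed at least 2 usable probes and joined neighbouring probes of one gene name at most 1000 bp apart. Positions are those in the files, whose build is not given in the sources used here. The rule was tried on simulated data made by shuffling log ratios among the usable probes of both arrays, in 15353 regions. Of 100 regions with a planted 4-fold shift in each direction, 99 were recovered as higher and 94 as lower. With a 2-fold shift, which lies at the threshold itself, these were 56 and 42. Shuffling removes the likeness of neighbouring probes, and each shift was equal over a region's probes, so recovery in real regions can differ. Calls in regions without a planted shift were not counted.

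Members, lists, calling rule and naming rule were chosen with earlier results of these data known. Named are all 10 members, up to 4 called genes of each list and the 5 genes nearest in value to the highest member. The 12 alternatives used limma 3.58.1 in R 4.3.3 for normexp (offset 50) and loess, and Python 3.11.15 otherwise.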

Additional observations from a re-analysis of the deposited data

How the results depend on the processing

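Of the POU regions, Pou4f2 and Pou3f2 kept their calls under all 9 settings run for single regions. No called POU region changed sign. The number of POU regions called lower was 0 after normexp correction, with dim probes kept, with a gap of 500 bp and at a 3-fold threshold. The number called higher was 4 with the 500 bp gap, where Pou4f2 splits into 2 called regions and the Pou3f3 promoter is called, and 1 at the 3-fold threshold. The median over POU regions stayed between 0.10 and 0.42. Over all regions, the number called lower was 20 after normexp correction and 56 with dim probes kept. At a 1.5-fold threshold 679 regions were called higher and 344 lower, and at a 3-fold threshold 145 and 34. The threshold changes follow from the rule, and the gap and dim-probe settings change which probes form a region. The normexp setting started from each spot's mean signal and background median in place of the processed signal. What moved the calls under it was not tested. No paired analysis was possible because there is 1 sample per age and array. Signal over background limits the Pou4f1, Pou4f3 and first Pou2f1 regions.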

Other observations

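The 5 regions outside the family whose values came nearest to that of Pou4f2 belonged to Zfp536 at 3.65 ± 1.67, Gria2 at 3.59 ± 2.48, Crabp1 at 3.53 ± 1.57, Plcxd1 at 3.50 ± 0.19 and Barhl2 at 3.47 ± 1.85 (SD over 7, 6, 5, 3 and 9 probes). Likeness here is the difference of a single value from 3.57. Gria2, a glutamate receptor gene, and Barhl2, a homeobox gene of neural development, were not called, since at least 1 of their probes lay on the other side of 0.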
